A study of Mus musculus with 18 samples.

Results

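Gene expression in cells labelled heart iEC was compared with that in native heart endothelial cells (heart ECs) by bulk mRNA sequencing of cultured mouse cells at day 7. In the field iEC names endothelial-like cells induced from other cells, though no label says so here. The comparison rests on 6 of the 18 libraries of the series, namely the 3 labelled heart iEC and the 3 labelled heart endothelial, taken by their group labels and described across all expressed genes. Both groups are from heart and both grew in the endothelial medium EGM2. The other libraries are heart fibroblasts and the matching fibroblasts, ECs and iECs from lung, 3 each, and the series set out to ask how far iECs take on the endothelial identity of their organ. The iEC libraries carry the term SEG in their titles in place of iEC. The labels give neither what SEG stands for nor which genes were introduced, and they give no strain, sex, age or sorting step. Whether replicates came from separate cultures or animals is not given either, and p-values therefore measure only the spread between libraries, which may be technical. That spread was estimated over all 18 libraries, so the SEs and p-values of heart changes also carry the spread of the lung groups.

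Endothelial cells line blood and lymphatic vessels, and arterial, venous, capillary and lymphatic endothelium each carry their own transcripts. Arterial identity depends on Notch signalling: ligands such as Dll4 and Jag1 on one cell activate Notch receptors on its neighbour, the cleaved receptor joins the DNA-binding protein Rbpj, and Hey and Hes genes are switched on. Sox17 and Erg are transcription factors of normal endothelium, the former enriched in arteries, and Prox1 specifies lymphatic endothelium. Endothelial cells exposed to inflammatory cytokines switch on adhesion molecules and chemokines through NF-kappaB and antiviral genes through interferon signalling.

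The 6 libraries held 18533911 to 23714085 estimated counts. Levels are given in CPM, counts scaled to library size by TMM. They are not divided by gene length and are compared between groups for 1 gene and not between genes. Pearson's r of log2 CPM was 0.9953 to 0.9962 among heart iECs, 0.9935 to 0.9948 among heart ECs and 0.9271 to 0.9364 between them. Of 14864 genes tested, 3639 (24.5%) were higher and 3633 (24.4%) lower in heart iECs by edgeR's quasi-likelihood test at a Benjamini-Hochberg adjusted p under 0.05, 48.9% in all. Against a log2 change of 1 (glmTreat) 691 genes (4.65%) were higher and 1084 (7.29%) lower. Group levels did not overlap for 63.5% of tested genes, and the median log2 change of all tested genes, iEC minus EC, was 0.0092. Large differences were more often on the lower side: 506 called genes were higher by more than 2 on the log2 scale and 901 lower by as much. For each gene list below, the share called and the median are to be read against these values. Many lists share genes, and a list member counts in each list that holds it.

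Markers of endothelium and of fibroblasts were both present in both groups. The 28 pan-endothelial genes summed to 4042 CPM in heart ECs, 2986 in heart iECs and 1055 in heart fibroblasts (means, n = 3). The 30 fibroblast genes summed to 33092 CPM in heart ECs and 30950 in heart iECs, against 57581 in heart fibroblasts and 13467 in lung ECs. In bulk RNA fewer cells of a type and less RNA per cell cannot be told apart.

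Sox17 and Erg stood far above the native level in heart iECs. Sox17 was at 487, 433 and 478 CPM in the iEC libraries and at 6.86, 7.30 and 6.27 CPM in the EC libraries. Erg was at 1038, 972 and 1063 CPM in the former and at 56.5, 45.0 and 52.9 CPM in the latter. The groups were far from overlapping for both genes, with log2 changes of 6.09 ± 0.159 and 4.31 ± 0.182 (± SE throughout; adjusted p = 6.59e-15 and 6.94e-12). The table gives 1 value per gene, so a transcript from an introduced copy and one from the chromosome cannot be told apart. Several relatives were lower: the SoxF genes Sox18 and Sox7 were lower by 4.64 ± 0.181 and 2.71 ± 0.180, and the ETS genes Fli1, Ets2 and Ets1 by 1.57, 1.68 and 0.74 on the log2 scale. Elk3, another ETS gene, was higher by 0.48 ± 0.0572.

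The genes with the largest increases were mostly not endothelial genes. Npffr1, a neuropeptide receptor gene (GRCm38 chromosome 10, 61595492 to 61628565, plus strand), stood at 11.01, 11.9 and 11.3 CPM in iECs. Lpo, which encodes lactoperoxidase (chromosome 11, 87806428 to 87828289, minus strand), stood at 10.7, 10.3 and 12.4 CPM. Neither had a count in any heart EC library. Against a floor of 3 counts over the EC group, 0.0513 CPM, they were at least 223-fold and at least 218-fold higher. Sphkap, which encodes an anchoring protein for protein kinase A, had 156, 142 and 184 CPM against 0.179, 0.0549 and 0.0555 (log2 change 10.54 ± 0.231). Tmprss5, Aqp4 and Lrat, genes of a serine protease, a water channel and a retinol esterifying enzyme, reached mean levels of 28.3, 11.96 and 20.4 CPM in iECs with 2, 1 and 3 counts over all EC libraries. Magix, Wfdc18, Tmem28, Nat8l, Tecrl and Slc26a7 followed, with log2 changes of 6.64 to 8.65. All 12 genes were present in each iEC library and at or near 0 in each EC library.

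The largest decreases included inflammatory and mesothelial genes. Nos2, which encodes inducible nitric oxide synthase, stood at 142, 56.9 and 63.7 CPM in heart ECs and had 1 count over the 3 iEC libraries. The acute-phase gene Saa3 (chromosome 7, 46711998 to 46715700, minus strand) stood at 632, 554 and 486 CPM in ECs and at 0.533, 0.501 and 0.216 CPM in iECs. The sodium channel gene Scn3a went from 30.4 ± 0.848 CPM (SD, n = 3) to 0.0575 CPM, 529-fold lower. Sez6l, a neuronal membrane protein gene, fell from 12.6 CPM to 3 counts over the iEC group, and Serpinb2, a plasminogen activator inhibitor gene, by 8.37 ± 1.52 on the log2 scale. Csf3, a granulocyte growth factor gene, stood at 32.0, 18.4 and 24.2 CPM in ECs and had 1 count over the iEC group. Cxcl5, Cxcl2, Lcn2, Msln and Lrrn4 were also among the 12 largest decreases and are described with their groups.

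Genes of the Notch pathway were mostly higher in heart iECs. Of 17 tested members 11 were higher and 4 lower, with a median log2 change of 0.64. Among the targets, Hey1 (chromosome 3, 8663359 to 8667256, minus strand) stood at 85.0, 83.3 and 85.2 CPM in iECs and at 0.852, 2.03 and 1.94 CPM in ECs. Its log2 change was 5.74 ± 0.298 (adjusted p = 1.84e-10), and the groups lay far apart. Heyl followed with 3.82 ± 0.317 and Hey2 with 2.17 ± 0.377, and Hes5 was at 0.788 CPM in iECs without a count in ECs. Hes1, another target, did not pass the test (0.51 ± 0.235). Among the ligands, Dll4 stood at 66.3, 70.2 and 68.9 CPM in iECs and at 9.37, 11.3 and 10.4 CPM in ECs. Its log2 change was 2.72 ± 0.134, beside 2.39 ± 0.307 for Jag2 and 2.17 ± 0.128 for Jag1. The receptors rose by less: Notch4 by 1.33 ± 0.0872, Notch2 by 0.64 ± 0.131, Notch3 by 0.54 ± 0.202 and Notch1 by 0.51 ± 0.103. Notch3 lost its call whenever 1 of the 6 libraries was left out, with adjusted p of 0.0537 to 0.105. The exceptions were Rbpj itself, which fell from 278 to 87.8 CPM (means, n = 3), the feedback regulator Nrarp (−2.10 ± 0.264), the ligand Dll1 (−3.03 ± 0.295) and Mfng, which encodes a glycosyltransferase acting on Notch receptors (−5.49 ± 0.507).

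Arterial genes were split, with 8 of 15 tested members higher and 6 lower (median 0.64). Gja5, the connexin 40 gene of arterial endothelium (chromosome 3, 96904693 to 97077416, plus strand), stood at 380, 360 and 384 CPM in iECs. In ECs it stood at 5.06, 5.44 and 6.33 CPM, a 66.7-fold difference (log2 change 6.06 ± 0.224, adjusted p = 3.86e-12). The semaphorin gene Sema3g (3.49 ± 0.174), the transcription factor gene Mecom (3.36 ± 0.128), the kinase gene Bmx (2.86 ± 0.175) and Igfbp3 (2.81 ± 0.124) were higher too. Efnb2, the ephrin of arterial endothelium, rose by 0.64 ± 0.0938, and Gja4, the connexin 37 gene, did not pass the test (0.02 ± 0.145). On the other side, the chemokine gene Cxcl12 and its receptor gene Cxcr4 fell by 2.73 ± 0.108 and 1.94 ± 0.183, Stmn2 by 5.66 ± 0.473, Depp1 by 5.43 ± 0.348 and Vegfc by 1.36 ± 0.130.

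**Figure D1:**
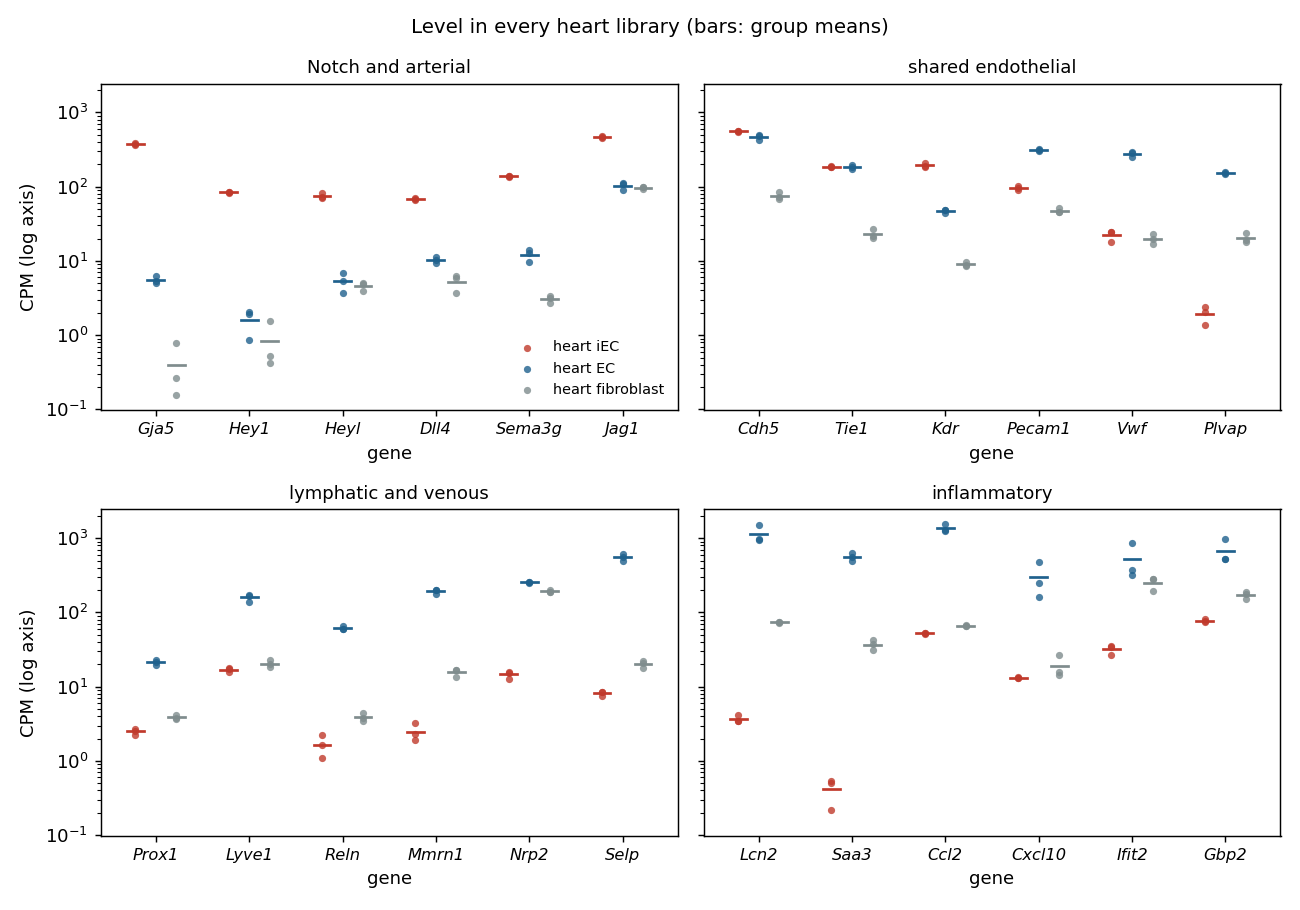
Level of 24 genes in every heart library, in CPM on a log axis, with 1 point per library and a bar for each group mean. Gja5, Hey1 and Dll4 sit higher in all iEC libraries than in the EC libraries, Cdh5 and Tie1 lie close, and the lymphatic, venous and inflammatory genes shown sit lower in iECs.

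The pan-endothelial list, the genes expected in most endothelium, was lower in heart iECs for 16 of its 28 members and higher for 8, with a median of −1.32. Cdh5, which encodes VE-cadherin, stood at 556, 540 and 569 CPM in iECs and at 497, 426 and 474 CPM in ECs. The receptor gene Tie1 stood at 189, 183 and 185 CPM and at 185, 171 and 194 CPM. Neither passed the test (0.25 ± 0.111, adjusted p = 0.0667, and 0.02 ± 0.0914, adjusted p = 0.893), nor did Clec14a and Tek. The groups did not overlap for Cdh5 but did for Tie1. Above the native level were Ptprb, the phosphatase acting on Tie2 (2.44 ± 0.111), the VEGF receptor gene Kdr (2.03 ± 0.124), Myct1 (1.32 ± 0.141), S1pr1 (1.23 ± 0.126) and Cd93 (0.98 ± 0.103). Below it was Pecam1, an adhesion molecule of endothelial junctions, at 89.8, 97.4 and 102 CPM in iECs against 319, 299 and 311 CPM in ECs (−1.69 ± 0.0897). Vwf, which encodes von Willebrand factor, stood at 17.97, 24.2 and 24.5 CPM against 281, 295 and 250 CPM (−3.63 ± 0.136). Heart fibroblasts had 19.8, 22.9 and 17.1 CPM of Vwf, so that iECs overlapped with heart fibroblasts and not with ECs. Lung fibroblasts stood at 1.88 CPM of Vwf (mean, n = 3). The part of endothelial cells in the heart fibroblast libraries was not tested. Plvap, the gene of fenestral diaphragms (chromosome 8, 71497765 to 71511752, minus strand), went from 153 ± 5.19 to 1.93 ± 0.509 CPM (SD, n = 3), 79.4-fold lower and below the 20.1 CPM of heart fibroblasts. The endothelial nitric oxide synthase gene Nos3 (−4.96 ± 0.341), the tight junction gene Cldn5 (−4.82 ± 0.236), Mmrn2 (−4.81 ± 0.213) and Cd34 (−2.93 ± 0.0977) were lower as well.

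Lymphatic genes were mostly much lower in heart iECs, and most venous genes were lower too. Of 11 lymphatic genes 9 were lower and 2 higher, with a median of −3.09. Mmrn1, a matrix protein gene of lymphatic endothelium and platelets (chromosome 6, 60924976 to 60989378, plus strand), stood at 2.31, 3.21 and 1.90 CPM in iECs and at 199, 179 and 199 CPM in ECs. Lyve1, the hyaluronan receptor gene, stood at 17.2, 18.1 and 15.8 CPM against 172, 140 and 165 CPM. Prox1 stood at 2.26, 2.54 and 2.72 CPM against 21.5, 19.5 and 23.2 CPM. None of these groups overlapped, and the changes were −6.27 ± 0.200, −3.22 ± 0.129 and −3.09 ± 0.244. Reln fell by 5.22 ± 0.202 and Flt4, the receptor gene for VEGF-C, by 1.44 ± 0.107, whereas Itga9 rose by 1.04 ± 0.0916 and Foxc2 by 0.45 ± 0.112. The 11 genes summed to 1068 CPM in ECs, 437 in iECs and 373 to 412 in heart fibroblasts.

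Of 11 venous genes 8 were lower and 2 higher (median −3.41). Their sums overlapped, at 3400 to 3985 CPM in ECs and 3537 to 3721 CPM in iECs. Vcam1 made up 1643 CPM of the sum in ECs and 2846 CPM in iECs (means, n = 3). The selectin gene Selp stood at 8.52, 7.55 and 8.59 CPM in iECs and at 614, 555 and 485 CPM in ECs, 67.1-fold lower (−6.07 ± 0.654). The semaphorin and VEGF coreceptor gene Nrp2 stood at 12.9, 15.5 and 15.9 CPM against 260, 258 and 248 CPM. Heart fibroblasts also held Nrp2 at 186 to 198 CPM, so that iECs were below both other heart groups. Ackr1 (−5.95 ± 0.577), Lrg1 (−5.64 ± 0.319) and Sele (−4.91 ± 0.545) were lower too. Nr2f2, the venous regulator COUP-TFII, was higher by 0.34 ± 0.0678, and Ephb4, the venous ephrin receptor gene, did not pass the test (−0.02 ± 0.0710). Vcam1 was called higher (0.79 ± 0.273, adjusted p = 0.0270) but lost the call without EC replicate 2 or 3 or iEC replicate 1 or 3, with adjusted p of 0.0583 to 0.0939.

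Genes of capillary endothelium and fatty acid uptake were lower in 7 of 12 tested members and higher in 2 (median −0.83, and −0.75 with a gene without counts in iECs put at its bound). Gpihbp1, the anchor of lipoprotein lipase in capillaries, went from 9.52 to 0.142 CPM (−6.00 ± 0.313), the fatty acid transporter gene Cd36 fell by 2.94 ± 0.283 and Lpl by 1.59 ± 0.237. Slc27a4 rose by 1.07 ± 0.0806 and Fabp5 by 0.87 ± 0.0922, while Fabp4 was at 195 and 181 CPM and did not pass the test. Of 9 caveolae genes 3 were higher and 4 lower (median −0.18), with Cav1 at 667, 674 and 726 CPM in iECs against 140, 162 and 168 CPM in ECs (2.14 ± 0.158). Cav2 rose by 1.55 ± 0.104 and Cavin3 by 1.38 ± 0.137, and Cavin1, the main cavin gene, did not pass the test.

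Among endothelial transcription factors 8 of 23 were higher and 11 lower (median −0.43). Besides Sox17, Erg and Mecom, the increases were small, with Lmo2 at 0.69 ± 0.146 and Elk3 at 0.48 ± 0.0572. Tal1, which takes part in blood and endothelial development, fell from 10.4 ± 0.805 to 2.01 ± 0.210 CPM (SD, n = 3; −2.36 ± 0.261), Lyl1 by 3.62 ± 0.399 and Gata2 by 2.05 ± 0.125. The flow-responsive gene Klf2 did not pass the test (0.28 ± 0.154), whereas Klf4 fell by 0.74 ± 0.154. Transcription factors of heart mesoderm were higher in 6 of 17 members and lower in 8 (median −0.21). Gata4 stood at 166, 152 and 150 CPM in iECs and at 67.4, 76.4 and 73.6 CPM in ECs (1.11 ± 0.142). Tbx20, abundant in both groups with 482 and 641 CPM, fell by 0.41 ± 0.111, Hand2 by 1.39 ± 0.0851 and Tbx3 by 2.04 ± 0.227, and Meis1 rose by 1.87 ± 0.112. Wt1, a gene of mesothelium and epicardium, fell by 5.50 ± 0.337 together with the mesothelial markers given below.

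In the VEGF and angiopoietin list 3 of 15 genes were higher and 8 lower (median −0.69). Receptors went different ways: Kdr rose, its coreceptor gene Nrp1 rose by 2.12 ± 0.193, and Flt1, which binds VEGF-A without strong signalling, fell from 164 to 48.5 CPM (−1.76 ± 0.145). Among ligands Angpt2, the Tie2 ligand made by activated endothelium, went from 221 ± 24.9 to 10.1 ± 0.362 CPM (SD, n = 3; −4.46 ± 0.152), while Vegfa did not pass the test (0.17 ± 0.112). Tip cell genes, those of the leading cells of sprouts, were higher in 4 of 12 members and lower in 6 (median −0.47). Apln and its companion Angpt2 were lower, Apln by 3.86 ± 0.123, whereas Dll4, Mcam (1.55 ± 0.134) and Esm1 (1.05 ± 0.201) were higher.

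Haemostasis and vasomotor genes were lower in 9 of 16 members and higher in 4 (median −0.65). Edn1, which encodes the vasoconstrictor endothelin 1, stood at 455, 471 and 442 CPM in iECs and at 100, 95.3 and 94.6 CPM in ECs (2.24 ± 0.0745, adjusted p = 1.06e-13). The endothelin receptor gene Ednrb moved the opposite way, from 100 to 5.32 CPM (−4.23 ± 0.245). Thrombomodulin (Thbd, 1.64 ± 0.122) and tissue factor (F3, 1.37 ± 0.111) were higher, and the protein C receptor gene Procr (−2.68 ± 0.178) and Ptgs1 (−2.45 ± 0.237) lower. Of 12 leukocyte adhesion genes 8 were lower and 3 higher (median −0.98). Icam1, the integrin ligand induced by cytokines, stood at 89.2, 84.2 and 84.9 CPM in iECs against 947, 853 and 838 CPM in ECs (−3.35 ± 0.357). Icam2, a constitutive ligand of the same kind, rose by 0.58 ± 0.153.

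Inflammatory genes had the lowest median of the 33 pathway lists. Of 27 tested chemokine, cytokine and acute-phase genes 20 were lower and 2 higher. The median was −4.71, and −3.50 with the 2 genes without counts in iECs (Il1b and Ccl20) put at their bounds. Their sum was 14786, 13173 and 12811 CPM in the EC libraries and 1316, 1303 and 1349 CPM in the iEC libraries. Heart fibroblasts summed to 10687 to 11700 CPM, so that iECs were below both other heart groups. Ccl2, the monocyte chemoattractant gene, stood at 1541, 1264 and 1297 CPM in ECs and at 53.6, 50.6 and 53.02 CPM in iECs (−4.71 ± 0.745). The iron-binding acute-phase gene Lcn2 stood at 1518, 950 and 960 CPM against 3.42, 4.17 and 3.50 CPM (−8.27 ± 1.13). The neutrophil chemokine genes Cxcl1, Cxcl2 and Cxcl5 fell by 5.83 ± 1.21, 7.45 ± 1.49 and 8.89 ± 1.57, the complement gene C3 by 4.89 ± 0.427 and Csf1, the macrophage growth factor gene, by 2.73 ± 0.186. Spread in the lung groups enters such SEs: Cxcl5 was at 453 ± 55.2 CPM in heart ECs and 65.1 ± 95.4 CPM in lung iECs (SD, n = 3). Ptgs2, the inducible cyclooxygenase gene, was an exception at 185, 186 and 188 CPM in iECs against 65.1, 38.4 and 51.1 CPM in ECs (1.85 ± 0.335), and Ccl11 was called higher at 0.545 CPM. Macrophage markers summed to 343 to 454 CPM in ECs and 357 to 413 CPM in iECs and overlapped between the groups. Of 18 such markers 7 were higher and 3 lower, and the fall of Cd14, given below, enters these sums. The part of macrophages in the inflammatory genes was not tested.

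Interferon-stimulated genes were lower in 23 of 26 members and higher in none (median −1.80). Their sum was 12681, 7860 and 8689 CPM in the EC libraries and 3212, 2794 and 2775 CPM in the iEC libraries. EC replicate 1 was thus above the other EC libraries, and without it 16 of the 26 genes were lower and none higher. In heart fibroblasts the list summed to 7059 to 7717 CPM, again above the iECs. Ifit3, an antiviral effector gene, stood at 239, 203 and 186 CPM in iECs against 2083, 1519 and 1554 CPM in ECs (−3.04 ± 0.651, adjusted p = 0.00179). Heart fibroblasts, at 1434 to 1639 CPM, overlapped with the ECs for this gene. Cxcl10, a T cell chemokine gene, spread widely among ECs, at 483, 247 and 162 CPM against 13.2, 13.6 and 13.1 CPM in iECs (−4.48 ± 1.06). Ifit2 fell by 4.01 ± 0.603, Rsad2 by 3.39 ± 0.786 and Gbp2 by 3.13 ± 0.614, while Bst2, Oasl2 and Irf7 did not pass the test. All 10 genes of MHC class I presentation were lower (median −1.48), from B2m at −0.54 ± 0.201 to the regulator Nlrc5 at −2.82 ± 0.376, and 9 were called without EC replicate 1. The 10 genes summed to 5645 to 8235 CPM in ECs, 3610 to 3693 in iECs and 10010 to 10735 in heart fibroblasts. H2-K1 and H2-D1, and the members of the Ifit, Gbp and Oas families, have close copies in the genome, so their separate values are less certain.

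Promoter windows were searched for the DNA elements that interferon and NF-kappaB signalling are known to use. The windows are RefSeq's on GRCm38.p6, 300 bases long, from 250 before to 50 after a transcription start. The interferon-stimulated response element was searched as GAAA, any 2 bases and GAAA, and the NF-kappaB site as GGGA, any 2 bases and TTCC, on both strands and with overlapping matches allowed. The former occurred in 3.44% of 32851 windows and in 13 of the 24 windows of the interferon list (54.2%), which cover 20 of its genes. The latter occurred in 1.47% of all windows and in 5 of the 24 windows of the chemokine list (20.8%), those of Csf1, Cxcl1, Cxcl2, Il6 and Nfkbia. The NF-kappaB pattern also occurred in 3 of the 24 windows of the interferon list (12.5%), those of Cxcl10, Gbp2 and Ifit2, and the interferon element in 1 of the 24 of the chemokine list (4.17%), that of Saa3. Each pattern occurred in 1 of 9 windows of the MHC class I list (11.1%), both in B2m. A match is a description of letters and not evidence of binding. The interferon list is of genes known to answer interferon, so its share would be the same whatever these libraries showed. The part of either pathway in the decreases was not tested. The genes printed all have a match and were not ranked by the size of their decrease. Saa3, Cxcl5 and Lcn2 fell more than Cxcl1 and Cxcl2 and are not among the genes with an NF-kappaB match. Likewise Ifit2 fell more than Ifit3 and Rsad2 and is not among those with the interferon element. Below are the 250 bases before the start of 2 interferon genes and 2 chemokine genes. They run 5′ to 3′ on the gene's strand, with matches in capitals.
Ifit3, chr19:34583279-34583528, plus strand: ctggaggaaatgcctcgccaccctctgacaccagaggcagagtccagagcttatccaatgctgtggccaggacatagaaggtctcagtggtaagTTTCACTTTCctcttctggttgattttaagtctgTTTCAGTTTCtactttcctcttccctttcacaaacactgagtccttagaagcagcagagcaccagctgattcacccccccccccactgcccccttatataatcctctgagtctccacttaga
Rsad2, chr12:26456453-26456702, minus strand: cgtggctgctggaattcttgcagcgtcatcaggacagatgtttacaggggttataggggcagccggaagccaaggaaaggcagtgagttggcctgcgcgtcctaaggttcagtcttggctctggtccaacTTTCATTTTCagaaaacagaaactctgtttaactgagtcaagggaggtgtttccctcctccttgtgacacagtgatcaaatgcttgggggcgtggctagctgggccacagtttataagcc
Cxcl1, chr5:90890995-90891244, plus strand: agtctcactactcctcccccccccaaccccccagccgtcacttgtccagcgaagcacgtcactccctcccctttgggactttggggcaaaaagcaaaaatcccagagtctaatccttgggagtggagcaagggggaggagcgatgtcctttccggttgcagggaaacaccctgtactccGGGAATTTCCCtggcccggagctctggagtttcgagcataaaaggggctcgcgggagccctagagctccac
Cxcl2, chr5:90903649-90903898, plus strand: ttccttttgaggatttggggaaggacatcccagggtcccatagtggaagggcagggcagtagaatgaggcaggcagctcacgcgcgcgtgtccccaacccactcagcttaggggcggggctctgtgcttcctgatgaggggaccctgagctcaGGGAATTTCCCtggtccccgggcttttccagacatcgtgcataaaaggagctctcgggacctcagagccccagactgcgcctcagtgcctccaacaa
In Ifit3 the capitals mark 2 matches of the response element beginning 156 and 122 bases before the start, and in Rsad2 1 match beginning 120 bases before it. In Cxcl1 and Cxcl2 they mark 2 overlapping matches of the NF-kappaB pattern, 1 per strand, beginning 71 and 97 bases before the start. None of these 4 windows held a match of the other pattern, unlike the windows of Cxcl10 and Gbp2, which held both.

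**Figure D2:**
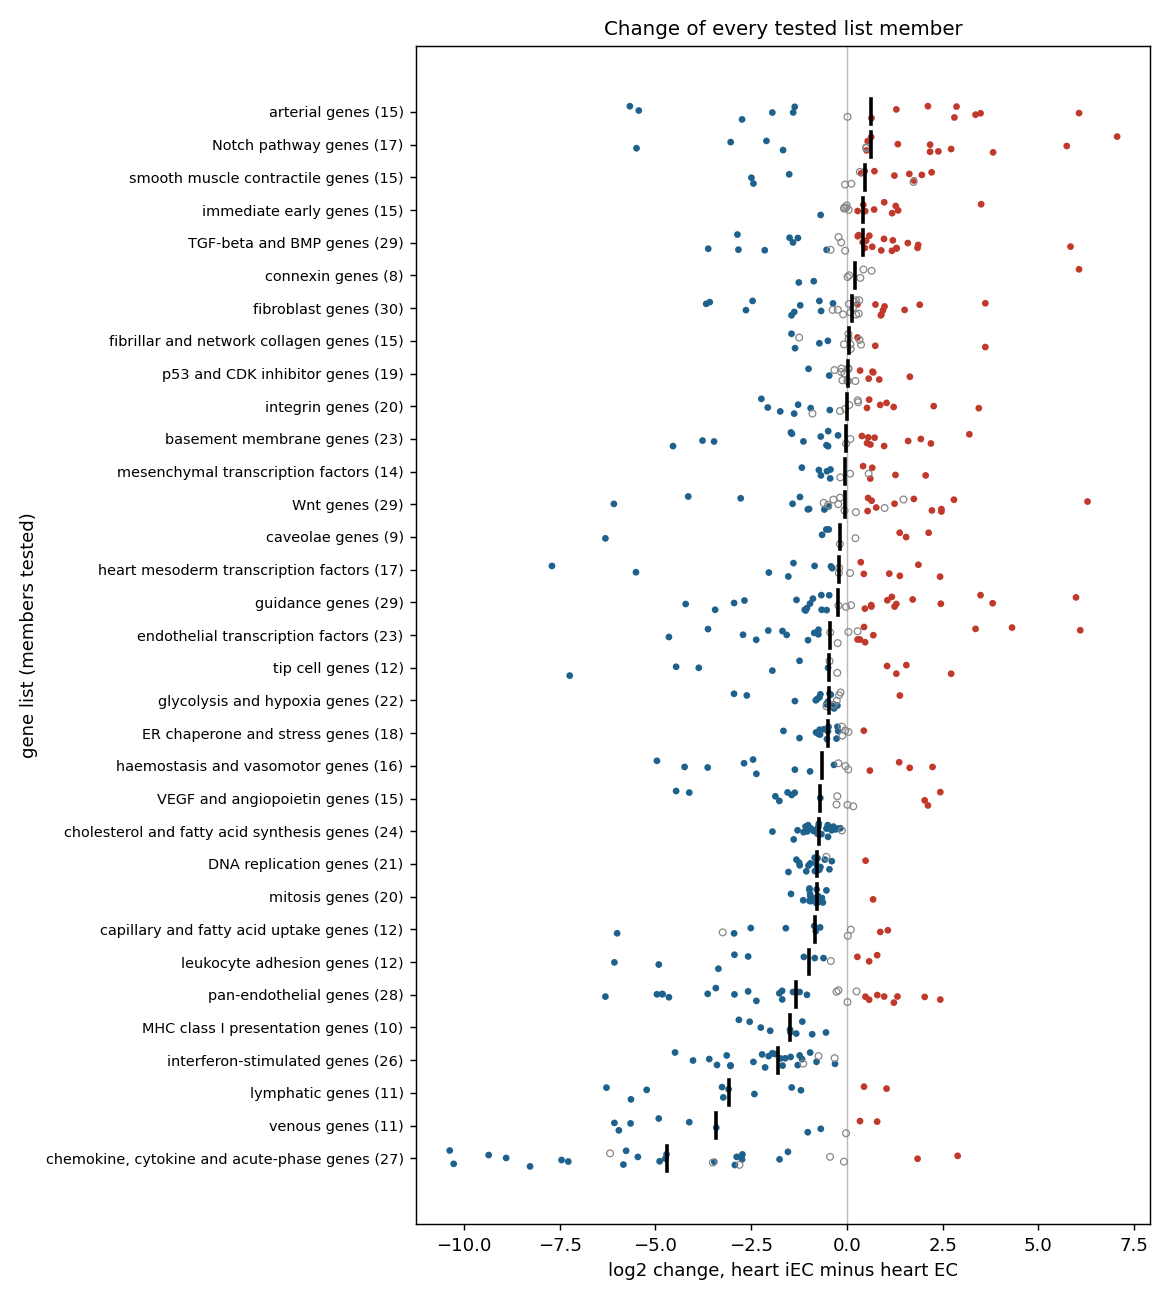
Log2 change, heart iEC minus heart EC, of every tested member of 33 gene lists, ordered by the list median (black bar). Filled points passed the test (red higher, blue lower in iECs) and open points did not. The chemokine, venous and lymphatic lists have the lowest medians (−4.71, −3.41 and −3.09), and the arterial and Notch lists the highest (0.64 each).

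Fibroblast genes were as often higher as lower in heart iECs: 9 of 30 were higher and 10 lower, with a median of 0.13. Dcn, the proteoglycan decorin, stood at 164, 200 and 185 CPM in iECs and at 2410, 2123 and 2019 CPM in ECs (−3.58 ± 0.363). Lum (−3.67 ± 0.295), Dpt (−2.63 ± 0.104) and the PDGF receptor gene Pdgfra (−1.37 ± 0.141) were lower too. Heart fibroblasts had 2335, 2017 and 2181 CPM of Dcn and overlapped with the ECs, whereas for Lum and Dpt they lay above the ECs. Col14a1 was 12.3-fold higher, at 736, 803 and 721 CPM against 51.6, 72.5 and 60.2 CPM (3.62 ± 0.322), and Cthrc1 rose by 1.90 ± 0.160. The main collagen I gene Col1a1 was at 8853 and 8286 CPM and did not pass the test (0.10 ± 0.113). Of 15 collagen genes 3 were higher and 4 lower (median 0.05), so that 46.7% were called against 48.9% of all tested genes. Among the lower ones were the collagen VI genes Col6a1 (−1.44 ± 0.126) and Col6a2 (−1.35 ± 0.135).

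Basement membrane genes changed in both directions, 10 of 23 higher and 11 lower (median −0.02). Col15a1 stood at 597, 609 and 582 CPM in iECs and at 63.9, 65.3 and 65.2 CPM in ECs (3.20 ± 0.217), and Col18a1, the source of endostatin, rose by 1.60 ± 0.0754. Laminin genes Lama1 and Lama3 rose by 2.20 ± 0.172 and 1.93 ± 0.183, and Lamc3 fell by 4.54 ± 0.514. The abundant collagen IV gene Col4a1 did not pass the test (−0.02 ± 0.0899), and Col4a3 and Col4a4 fell by 3.77 ± 0.284 and 3.47 ± 0.276. Contractile genes of smooth muscle were higher in 8 of 15 members and lower in 3 (median 0.47). Acta2 stood at 854, 753 and 814 CPM in iECs against 172, 255 and 196 CPM in ECs (1.96 ± 0.185), Myl9 rose by 2.21 ± 0.242 and Tagln by 1.75 ± 0.140, while Mylk fell by 2.44 ± 0.284. Mesenchymal transcription factors were split, 5 of 14 higher and 6 lower (median −0.04), with Osr1 at 2.06 ± 0.216 and Prrx1 at −1.17 ± 0.0857.

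TGF-beta and BMP genes were higher in 17 of 29 members and lower in 8 (median 0.41). Ltbp4, which binds latent TGF-beta in the matrix (chromosome 7, 27305136 to 27337692, minus strand), stood at 3959, 3867 and 3857 CPM in iECs and at 63.8, 80.2 and 59.9 CPM in ECs. The 57.3-fold difference (5.84 ± 0.149) was far beyond the replicate spread. Among ligands Bmp4 rose by 1.59 ± 0.0966, Tgfb2 by 1.30 ± 0.113 and Bmp6 by 1.18 ± 0.131, whereas Bmp2 fell by 3.62 ± 0.216 and Inhbb by 2.86 ± 0.148. Receptors Tgfbr2 (0.67 ± 0.110) and Bmpr2 (0.59 ± 0.168) were slightly higher, and the coreceptor genes Tgfbr3 (−1.49 ± 0.114) and Eng (−1.40 ± 0.0923) lower. The BMP target Id1 rose by 1.20 ± 0.153, and Id3 and Id2 did not pass the test.

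Of 29 tested Wnt genes 11 were higher and 9 lower (median −0.06). Dkk2, a Wnt inhibitor (chromosome 3, 132085292 to 132180304, plus strand), stood at 52.0, 55.7 and 49.8 CPM in iECs and at 0.583, 0.549 and 0.888 CPM in ECs (6.29 ± 0.360). The ligand gene Wnt5a (2.47 ± 0.143), the receptor gene Fzd4 (2.22 ± 0.113) and Axin2, a target of beta-catenin (2.47 ± 0.377), were higher. The R-spondin genes Rspo3 (−4.14 ± 0.154) and Rspo1 (−6.08 ± 0.887) and the secreted inhibitor Sfrp2 (−2.77 ± 0.284) were lower. Rspo1 is also on the mesothelial list, and the part of that list in its value was not tested. Guidance genes were higher in 12 of 29 members and lower in 14 (median −0.22). The Slit receptor gene Robo2 stood at 56.1, 43.7 and 62.7 CPM in iECs against 1.12, 0.769 and 0.611 CPM in ECs (5.98 ± 0.222), and its ligand gene Slit2 rose by 3.81 ± 0.137. The semaphorin genes Sema3c, Sema3a and Sema3e fell by 4.21 ± 0.233, 3.44 ± 0.210 and 2.94 ± 0.214. Integrin genes were balanced, with 7 of 20 higher and 7 lower (median 0.01), led by Itgb8 (3.45 ± 0.239) and Itga6, a laminin receptor subunit (−2.06 ± 0.0844).

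Cell cycle genes were lower in heart iECs by modest amounts. Of 20 mitosis genes 19 were lower and 1 higher, with a median of −0.79. Mki67, the proliferation marker, stood at 24.4, 22.5 and 22.8 CPM in iECs and at 34.8, 42.9 and 42.8 CPM in ECs (−0.79 ± 0.144). Heart fibroblasts had 2.35 to 4.05 CPM, so that iECs lay between the other heart groups without overlap. The survivin gene Birc5 had the largest decrease of the list (−1.46 ± 0.215), and Cdc20, an activator of the anaphase-promoting complex, was the 1 gene that was higher (0.69 ± 0.128). Of 21 DNA replication genes 19 were lower and 1 higher (median −0.77), from the helicase loader Cdc6 at −1.52 ± 0.211 to Rrm1 at −0.39 ± 0.0938, with Pola1 higher by 0.49 ± 0.136.

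Metabolic genes were lower as well. Of 24 genes of cholesterol and fatty acid synthesis 23 were lower and none higher (median −0.74). Sc5d, a late enzyme of cholesterol synthesis, stood at 55.5, 60.6 and 61.5 CPM in iECs against 144, 147 and 143 CPM in ECs (−1.29 ± 0.0726). Lss fell by 1.39 ± 0.143 and Idi1 by 1.13 ± 0.183, and Srebf2, the transcriptional regulator of the pathway, did not pass the test (−0.13 ± 0.0872). Glycolysis and hypoxia genes were lower in 16 of 22 members and higher in 1 (median −0.47). The hypoxia-responsive genes Ndrg1 and Egln3 fell by 2.94 ± 0.134 and 2.61 ± 0.227, glycolytic enzymes by less, such as Hk1 by 0.81 ± 0.0807 and Pkm by 0.77 ± 0.107. Chaperone and stress genes of the endoplasmic reticulum were lower in 13 of 18 members and higher in 1 (median −0.48), with the chaperone gene Hspa5 at −0.80 ± 0.127. Chac1, the 1 higher gene, lost its call without EC replicate 2 or 3 (adjusted p = 0.0511 and 0.0668).

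Markers of other cell types differed between the groups in some lists. Mesothelial genes were lower in 10 of 13 members and higher in 1, with a median of −6.82. Msln, the mesothelin gene, stood at 0.666, 0.709 and 0.475 CPM in iECs and at 175, 223 and 159 CPM in ECs (−8.22 ± 0.289). Lrrn4 (−8.16 ± 0.460) and Upk1b (−6.94 ± 0.455) were similar, and Gpm6a, which rose by 0.74 ± 0.144, made up 110 of the 118 CPM to which the list summed in iECs. The list summed to 503, 653 and 446.5 CPM in the EC libraries and to 67.2 to 91.1 CPM in heart fibroblasts. Cardiomyocyte genes were lower in 7 of 8 tested members (median −3.66) and summed to 72.8 CPM in ECs and 9.66 in iECs, with Nppa at −4.89 ± 0.502, Tnnt2 at −2.38 ± 0.211 and Myh7 without a count in either group.

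Macrophage genes were higher in 7 of 18 members and lower in 3 (median 0.53), and without EC replicate 1 in 5 and 3 cases. The complement gene C1qa rose by 1.49 ± 0.237, and Cd14, which also responds to inflammatory signals, fell from 75.2 to 0.662 CPM (−6.82 ± 0.963). Pericyte genes were higher in 3 of 6 tested members and lower in 3 (median −0.14), with Cspg4 at 2.03 ± 0.227 and Kcnj8 at −4.21 ± 0.368. Schwann cell genes were lower in 4 of 6 tested members and higher in 1. Their sums overlapped, at 19.8 to 28.5 CPM in ECs and 15.3 to 25.6 CPM in iECs. Epithelial genes summed to 13.7 CPM in ECs and 1.57 in iECs. Of 7 tested members 3 were lower and 4 were not called, and Epcam and Esrp1 had no count in either group. None of the lymphocyte or adipocyte genes was tested, and the globin genes had no count. The part of these cell types in the differences described above was not tested.

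**Figure D3:**
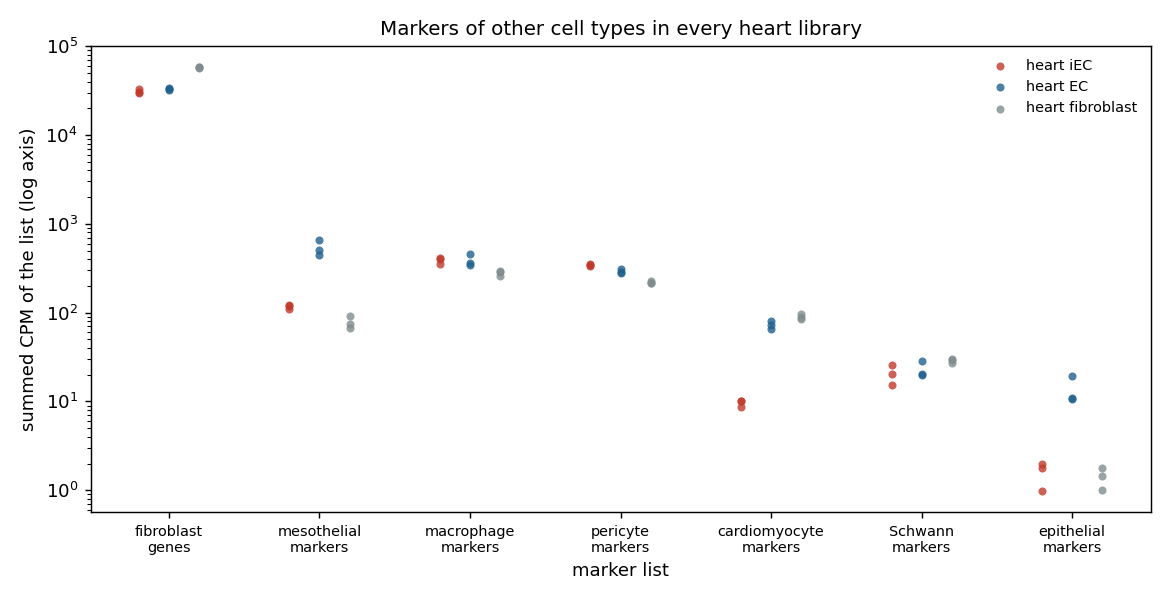
Summed CPM of 7 marker lists in every heart library, on a log axis, 1 point per library. Mesothelial, cardiomyocyte and epithelial sums are higher in all EC libraries than in all iEC libraries, macrophage sums overlap (343 to 454 CPM in ECs, 357 to 413 in iECs), and fibroblast sums lie below those of heart fibroblasts in both groups.

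To ask which of these differences are the same in the other organ, the change from EC to iEC in heart was tested against that in lung, which uses other libraries. The difference was called for 3864 of 14864 genes (26.0%), with 1815 (12.2%) higher in heart than in lung and 2049 (13.8%) lower. Among the 28 pan-endothelial genes the heart change lay above the lung change in 21 and below it in 2. The list summed to 5135 CPM in lung ECs, 2014 in lung iECs and 265 in lung fibroblasts. The matching heart sums were 4042, 2986 and 1055 CPM. The part of the EC and fibroblast levels of each organ in this difference was not tested. Pecam1 fell by 1.69 in heart and by 6.30 in lung on the log2 scale (difference 4.61 ± 0.134, adjusted p = 1.50e-13). Cdh5, which did not pass the test in heart, fell by 1.10 ± 0.112 in lung, from 999 to 465 CPM (difference 1.36 ± 0.157). Kdr, with 2.03 and 1.80, did not differ by the test (0.23 ± 0.169, adjusted p = 0.342). Of 17 Notch genes 11 lay above the lung change and 2 below. Dll4 and Sema3g, higher in heart iECs, were lower in lung iECs than in lung ECs (−1.85 ± 0.133 and −0.80 ± 0.168), with differences of 4.57 ± 0.189 and 4.29 ± 0.239.

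Cell cycle and sterol genes lay on the other side. Of 20 mitosis genes 14 had a lower change in heart than in lung and none a higher one, although Mki67 itself fell by 0.79 in both organs. Of 24 cholesterol and fatty acid genes 20 had a lower change in heart and none a higher one, such as Sc5d with −1.29 in heart and −0.20 in lung. The same held for 15 of 27 chemokine, cytokine and acute-phase genes, with 2 on the other side. The lung groups overlapped in the sum of that list, at 3942 to 11510.5 CPM in ECs and 1461 to 5618 CPM in iECs. In lung the interferon list was uneven between replicates, its sum running from 1518 to 6076 CPM among lung ECs, and 5 of its 26 genes differed by the organ test. Of the 18 macrophage genes 15 had a higher change in heart, and their sum was 10239 CPM in lung ECs and 3843 CPM in lung iECs, against 387 and 391 CPM in heart. Called changes of opposite direction in the 2 organs were found for 496 tested genes. The SoxF gene Sox18 (−4.64 and −7.51), Gja5 (6.06 and 4.24) and Plvap (−6.30 and −9.18) kept their direction in lung with a different size.

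**Figure D4:**
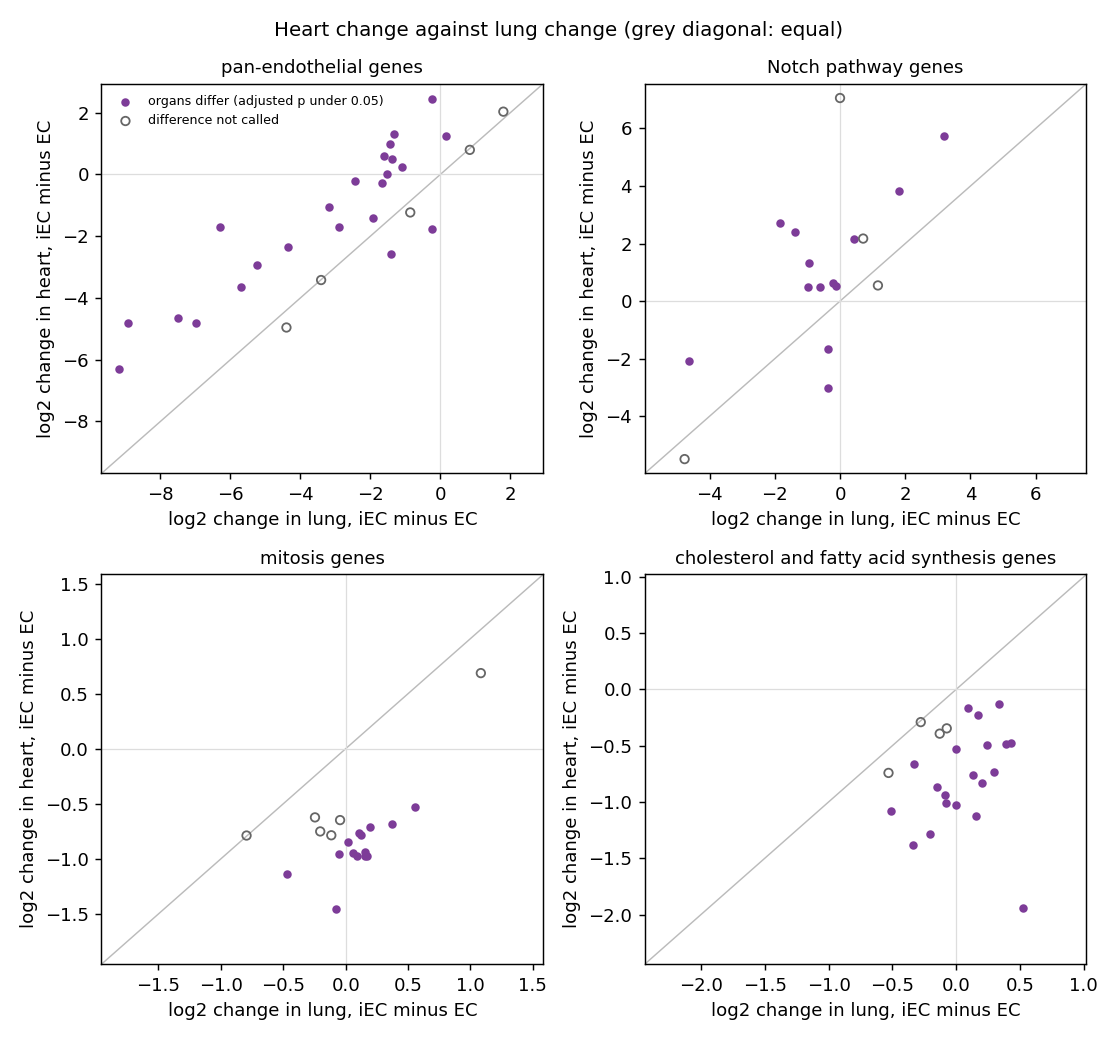
Log2 change from EC to iEC in heart (vertical) against lung (horizontal) for the tested members of 4 lists, with a grey line where both are equal. Pan-endothelial and Notch genes lie mostly above the line (21 and 11 called), mitosis and cholesterol genes mostly below it (14 and 20 called), and filled points mark genes for which the organs differed at an adjusted p under 0.05.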

How the data were processed

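RNA of 18 mouse libraries (6 groups of 3) was measured, of which the 3 heart iEC and 3 heart EC libraries are compared here. The authors deposited expected counts: whole-number estimates for each gene whose totals are not scaled. Per the submitters' processing notes, Salmon, DESeq2 and mm10 were used, and versions, strandedness and the way transcripts were summed to genes are not given in the sources used here. Symbols came from GENCODE M21 (GRCm38) for 35422 of 35727 gene IDs, and IDs without a symbol held 0.0532% of counts.

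Analysis used edgeR 4.0.16 under R 4.3.3: filterByExpr on the 6 groups (14864 genes, 99.97% of counts), TMM scaling and robust quasi-likelihood fits over all 18 libraries with 1 coefficient per group (12 residual degrees of freedom, common biological coefficient of variation 0.135). The call threshold was an adjusted p of 0.05 (Benjamini-Hochberg) over all genes tested. An SE is the size of the log2 change over the root of its F statistic. The organ contrast is the heart change minus the lung change. Replicates of a group differed by 4.83 to 16.0 times counting noise (chi-squared over its degrees of freedom), so none was counted as a duplicate. A floor of 3 counts reflects counting error alone, and the labels name no molecular identifiers.

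The libraries follow from their group labels, while the comparison and the 42 gene lists (657 genes, 623 tested) were chosen with earlier results of these data known. Named genes were Sox17 and Erg, the 12 largest called changes per direction of 10 CPM or more in the higher group without overlap, up to 4 called list members in the main direction and 2 in the other with at least 5 CPM, and the 6 largest organ differences per direction, without clone, pseudogene and predicted gene symbols. Other list members are given as values, and a few genes are not reported here. Lists are described by counts and medians, with no list test. Alternatives were DESeq2 1.42.0, RLE scaling, other filters, the 6 libraries alone, a replicate block, glmTreat against a log2 change of 1 and each library left out. On data simulated from these libraries, the fit recovered 80 of 100 genes changed by 1 on the log2 scale and 91 of 100 changed by 2 among 14864, with 9 of 14664 unchanged genes called. The changed genes were drawn from those at 1 CPM or more. They were far fewer than the 48.9% of genes called here, so these rates need not hold for the data.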

Additional observations from a re-analysis of the deposited data

Results flagged for a closer look

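The change from EC to iEC differed between heart and lung, by a test of the difference itself, for 3864 of 14864 genes. The 6 genes with the largest difference in each direction are given as heart change minus lung change on the log2 scale. Above lung were Cldn4 (9.28), Slc26a7 (8.58), Arg1 (7.21), Fermt1 (7.14), Tal1 (7.03) and Meox1 (6.70). Cldn4, Arg1 and Fermt1 stood at 0.369 CPM or less in both heart groups and at 60.0, 66.9 and 11.3 CPM in lung ECs. Their heart changes rest on few counts and were not called, yet they enter the difference. For Arg1 the fitted heart change (4.04 ± 1.71) was the larger share, beside a lung change of −3.18 ± 0.369. Slc26a7, an anion exchanger gene, was higher in heart iECs (14.2 against 0.130 CPM) and lower in lung iECs (1.17 against 4.47 CPM). Tal1 fell in both organs, from 10.4 to 2.01 CPM in heart and from 14.3 to 0.0158 CPM in lung, and Meox1 fell in lung from 29.3 to 0.410 CPM without passing the test in heart (0.57 ± 0.234). Without heart iEC replicate 3 the difference of Cldn4 was 6.74 and not called, and without heart iEC replicate 2 that of Fermt1 was 5.66 (adjusted p = 0.136).

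Below lung were Cxcl5 (−8.60), Nos2 (−8.57), Saa3 (−8.00), Serpina3c (−7.14), Cngb3 (−6.81) and Ccl11 (−6.64). Cxcl5 stood at 453 and 0.943 CPM in heart ECs and iECs and at 79.5 and 65.1 CPM in lung ECs and iECs, and Saa3 at 557 and 0.416 CPM against 2036 and 394 CPM. The lung libraries spread widely, with SDs in ECs and iECs of 65.8 and 95.4 CPM for Cxcl5 and 1627 and 425 CPM for Saa3. Neither lung change passed the test (adjusted p = 0.843 and 0.0652). Nos2 stood at 87.5 CPM in heart ECs and 21.7 CPM in lung ECs. Serpina3c fell in heart iECs by 4.27 ± 0.258 and rose in lung iECs, from 0.0947 to 0.676 CPM (2.87 ± 0.561). Cngb3 was near 0 in both lung groups and fell in heart iECs, whereas Ccl11 was mainly a gene of lung iECs, at 15.2 CPM. Without lung iEC replicate 3 the calls of Nos2 (−6.71, adjusted p = 0.0808) and Cngb3 (−5.27, adjusted p = 0.266) were lost. That of Ccl11 was lost without heart EC replicate 1 or 2 (adjusted p = 0.0672 and 0.0676).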

How the results depend on the processing

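DESeq2 called 7378 genes between heart iECs and heart ECs, RLE scaling 7232, no filter 6846, at least 5 CPM in 3 libraries 6338 and the 6 libraries alone 8147, against 7272. Against a log2 change of 1, glmTreat called 1775 (691 higher, 4.65%, and 1084 lower, 7.29%), so that 38.9% were higher against 50.04%, and 714 for the organ difference (299 and 415). Leaving out each library gave 6335 to 6618 genes (3108 to 3284 higher, 3227 to 3354 lower) and 3229 to 3997 for the organ difference. Same-numbered replicates did not deviate together (r = 0.0429, 0.00359 and −0.0267), and a replicate block gave 7092 genes, or 7895 on the 6 libraries. No named gene reversed, either in the heart change or in the organ difference. The near-even balance of called genes, 3639 higher and 3633 lower, did change sides. DESeq2 gave 3533 higher and 3845 lower, and RLE scaling 3483 and 3749. More genes were also lower than higher whenever a heart library was left out. The CPM filter (3170 and 3168) and the replicate block on all 18 libraries (3562 and 3530) kept the balance. The connexin list changed sides too, as given below. Under the alternatives other than glmTreat, which was run on gene counts alone, 205 of 210 named genes kept their call. The exceptions were Vcam1, Sesn1, Ddit3, Chac1 and Notch3. For the organ difference, leaving out 1 library ended the call of Cldn4, Fermt1, Nos2, Cngb3 and Ccl11. Of 80 list counts 71 stayed within 1.5 times. Collagen genes higher went from 3 to 5 and p53 genes lower from 2 to 4 on the 6 libraries alone, cardiomyocyte and Schwann genes lower to 2 under the CPM filter, and venous genes higher from 2 to 1. Depth limits the genes near the floor of 0.0513 CPM in ECs and 0.0431 CPM in iECs.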

Other observations

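Immediate early genes, which answer growth factors and handling within minutes, were higher in heart iECs for 9 of 15 tested members and lower for 1 (median 0.43). Egr3 stood at 8.52, 6.38 and 7.25 CPM in iECs and at 0.314, 0.714 and 0.944 CPM in ECs (3.51 ± 0.317). Egr2 rose by 1.34 ± 0.185, Fosb by 1.28 ± 0.196 and Fos by 1.18 ± 0.143, Myc fell by 0.68 ± 0.116, and Junb did not pass the test.

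Of 19 genes of p53 and CDK inhibitors 6 were higher and 2 lower (median 0.03), so that 42.1% were called against 48.9% of all tested genes. The proapoptotic gene Pmaip1 stood at 98.1, 93.5 and 81.6 CPM in iECs against 29.6, 27.1 and 30.5 CPM in ECs (1.65 ± 0.103), and Cdkn1b rose by 0.85 ± 0.0991. Cdkn1a, the p21 gene, was at 442 and 434 CPM and did not pass the test, Mdm2 fell by 0.46 ± 0.0811 and Gdf15 fell by 0.998 ± 0.186. Of 8 tested connexin genes 1, Gja5, was higher and 2 were lower, among them Gja1, the connexin 43 gene, which fell by 1.25 ± 0.135. The other 5 did not pass the test, so that 37.5% were called, again below the share of all tested genes. Without EC replicate 1, 2 were higher and 1 lower.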
